A study of Mus musculus with 53 samples.

Results

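The integrated stress response was followed through 10 of its genes in mouse liver tumors, T-cell acute lymphoblastic leukemia (T-ALL) and the healthy tissues: the transcription factors Atf4, Ddit3 (Chop) and Atf3, the regulators Trib3, Sesn2 and Chac1, the amino acid enzymes Asns, Psat1 and Phgdh, and the hormone Fgf21. They were chosen by symbol among 19057 genes on an Illumina mouse bead array. The array holds 18 probes for these 10 genes, and for each gene the probe with the highest mean signal was used. All values below are normalized probe signals on the log2 scale, on which a difference of 1 is a 2-fold difference in signal. Levels are compared between samples and never between genes, because probes differ in brightness.

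The study asked what happens when the spindle checkpoint gene Mad2l1 is removed together with Trp53 in hepatocytes or T cells. Liver tumors came from mice with the genotype Mad2f/f p53f/f Alb-Cre+ (20 tumors from 15 mice used, here p53 f/f) or Mad2f/f p53f/+ Alb-Cre+ (8 tumors from 5 mice, p53 f/+), in which Cre is driven by the albumin promoter of hepatocytes. The 8 T-ALLs used came from Mad2f/f p53f/f Lck-Cre+ mice, in which Cre is driven in developing T cells. The controls were 10 livers and 5 thymi of wild type mice. All animals were of a B6-129Sv mixed background, and the labels give no ages. Samples were pieces of whole tissue, and the labels name adenoma as well as carcinoma as reasons for killing mice without saying which tumor was which.

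The integrated stress response starts when kinases phosphorylate the translation factor eIF2alpha, which lowers protein synthesis as a whole but favors translation of Atf4. Atf4 then binds, often with a C/EBP protein, to composite sites near genes for amino acid uptake, amino acid synthesis and tRNA charging, and it induces Ddit3, Atf3 and Trib3. Since Atf4 is controlled largely by translation, its transcript is not a measure of its activity. In liver the response also induces Fgf21, a hormone that acts on other organs and that is induced by fasting through Ppara as well.

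The composite site is often written TGATGNAAN. This motif of 9 letters was searched on both strands in RefSeq promoter windows (GRCm38.p6) that run from 250 bases before to 50 bases after each annotated start. It was present in the windows of 5 of the 10 genes, Atf3, Trib3, Chac1, Asns and Fgf21, against 3.95% of all 32851 windows. The first share counts genes and the second windows, and a gene such as Psat1 has more than a single window. The 10 genes were picked as genes of this response, so their share is a description. The 5 windows are shown so that the motif can be read in place. Capitals mark the motif or its reverse complement, each sequence is written on the strand of its gene, and the annotated start follows base 250. In Asns the match is TGATGAAAC, the letters of the amino acid response element known from the human gene, and in Trib3 it lies after the start. A match is a description of letters and not a bound site.

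Atf3 (chr1:191183284-191183583, minus strand, match from base 140): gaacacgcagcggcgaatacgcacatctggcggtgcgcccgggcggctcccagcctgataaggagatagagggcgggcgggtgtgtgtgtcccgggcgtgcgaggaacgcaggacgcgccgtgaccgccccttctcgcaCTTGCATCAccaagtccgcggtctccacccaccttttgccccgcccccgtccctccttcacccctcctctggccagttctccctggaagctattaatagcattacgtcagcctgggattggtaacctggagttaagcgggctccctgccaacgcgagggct
Trib3 (chr2:152344011-152344310, minus strand, match from base 264): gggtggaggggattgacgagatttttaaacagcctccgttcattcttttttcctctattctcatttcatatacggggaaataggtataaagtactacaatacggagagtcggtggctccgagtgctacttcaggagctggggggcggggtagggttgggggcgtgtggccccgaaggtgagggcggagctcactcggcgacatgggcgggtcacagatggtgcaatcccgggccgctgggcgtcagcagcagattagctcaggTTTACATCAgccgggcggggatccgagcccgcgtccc
Chac1 (chr2:119350992-119351291, plus strand, match from base 57): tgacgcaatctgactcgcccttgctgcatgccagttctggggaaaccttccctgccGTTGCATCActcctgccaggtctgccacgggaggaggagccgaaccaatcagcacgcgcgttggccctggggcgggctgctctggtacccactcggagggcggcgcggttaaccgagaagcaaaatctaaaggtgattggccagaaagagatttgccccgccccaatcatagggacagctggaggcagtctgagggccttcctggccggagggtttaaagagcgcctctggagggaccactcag
Asns (chr6:7693160-7693459, minus strand, match from base 228): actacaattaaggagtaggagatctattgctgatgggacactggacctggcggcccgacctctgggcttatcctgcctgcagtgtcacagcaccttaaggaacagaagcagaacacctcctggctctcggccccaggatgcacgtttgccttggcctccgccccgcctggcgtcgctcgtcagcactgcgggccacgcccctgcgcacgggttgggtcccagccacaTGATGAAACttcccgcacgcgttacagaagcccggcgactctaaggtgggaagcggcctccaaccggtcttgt
Fgf21 (chr7:45615441-45615740, minus strand, match from base 111): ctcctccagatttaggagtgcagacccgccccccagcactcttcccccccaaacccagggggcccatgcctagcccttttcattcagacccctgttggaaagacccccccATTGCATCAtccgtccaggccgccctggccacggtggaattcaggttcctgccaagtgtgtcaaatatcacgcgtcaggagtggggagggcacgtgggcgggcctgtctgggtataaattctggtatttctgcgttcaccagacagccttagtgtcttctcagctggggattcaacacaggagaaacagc

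The share of probes detected was 28.3% to 40.3% on the 51 arrays used, with medians of 37.1% in p53 f/f tumors, 36.3% in p53 f/+ tumors, 33.1% in healthy liver, 35.9% in T-ALL and 38.1% in healthy thymus. One further T-ALL array with 4.56% of probes detected was left out. Mad2l1, the targeted gene, averaged 5.71 ± 0.50 (SD, n = 8) in T-ALL against 10.21 ± 0.19 (n = 5) in thymus, and in liver it averaged 7.81 ± 0.86 (n = 20) in p53 f/f tumors, 6.35 ± 0.41 (n = 8) in p53 f/+ tumors and 6.70 ± 0.80 (n = 10) in healthy tissue. Whether its probe lies in the floxed part is not known here. Hepatocyte markers were high in all liver groups, but the probes for Alb and Tat were detected on no healthy liver array and serve no check. Healthy liver 1 stood apart: its median correlation with the other healthy livers was 0.725. This correlation was 0.835 for healthy liver 5 and 0.954 to 0.973 for the rest. In healthy liver 1 the hepatocyte marker signal was the lowest of that group (15.89 on the log2 scale of the summed signal, highest 17.75). Its neutrophil, macrophage, stromal and bile duct marker signals were the highest. Without it the calls over all genes in liver went from 1703 higher and 1633 lower to 2255 and 2165. Values of the 10 genes without healthy liver 1 are given where a call changed. Healthy liver 5 held the highest healthy values of Atf4 (10.73) and Trib3 (9.92). Without healthy liver 5, Atf4 passed in p53 f/f tumors, as it did in 6 of 38 fits that each left out 1 array. Fgf21 then passed in p53 f/+ tumors, as it did in 5 of 38 such fits. Of the T-ALLs used, T-ALL 4 had the fewest probes detected (30.2%) and was the dimmest. The 95th percentile of its probe intensities was 299.5, against 1715 to 2786 in the others. Without T-ALL 4 the calls over all genes went from 1091 higher and 1930 lower to 2075 and 2639. The liver labels carry mouse numbers, by which the samples of one group came from separate animals, apart from the tumor pairs named below. The labels of T-ALLs and thymi number the samples and name no mice, so each was taken as a separate animal.

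In the liver tumors 6 of the 10 genes were higher than in healthy liver, and none was lower (limma, adjusted p under 0.05). Psat1, Fgf21, Asns, Atf3, Trib3 and Ddit3 were called, while Phgdh, Atf4, Sesn2 and Chac1 were not. Over all 11518 genes tested in liver, 14.8% were called higher and 14.2% lower. The median difference of the 10 genes was 1.28, and that of all genes was -0.01. Atf3 and Psat1 were each detected on 2 of 10 healthy livers and passed the filter on low signals only through the tumors, so these counts and medians describe the genes and are no test of the group. Under scaling to the array median the calls over all genes shifted from 1703 higher and 1633 lower to 2736 higher and 438 lower, with a median difference of 0.23, and the 6 calls kept their direction.

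**Figure D1:**
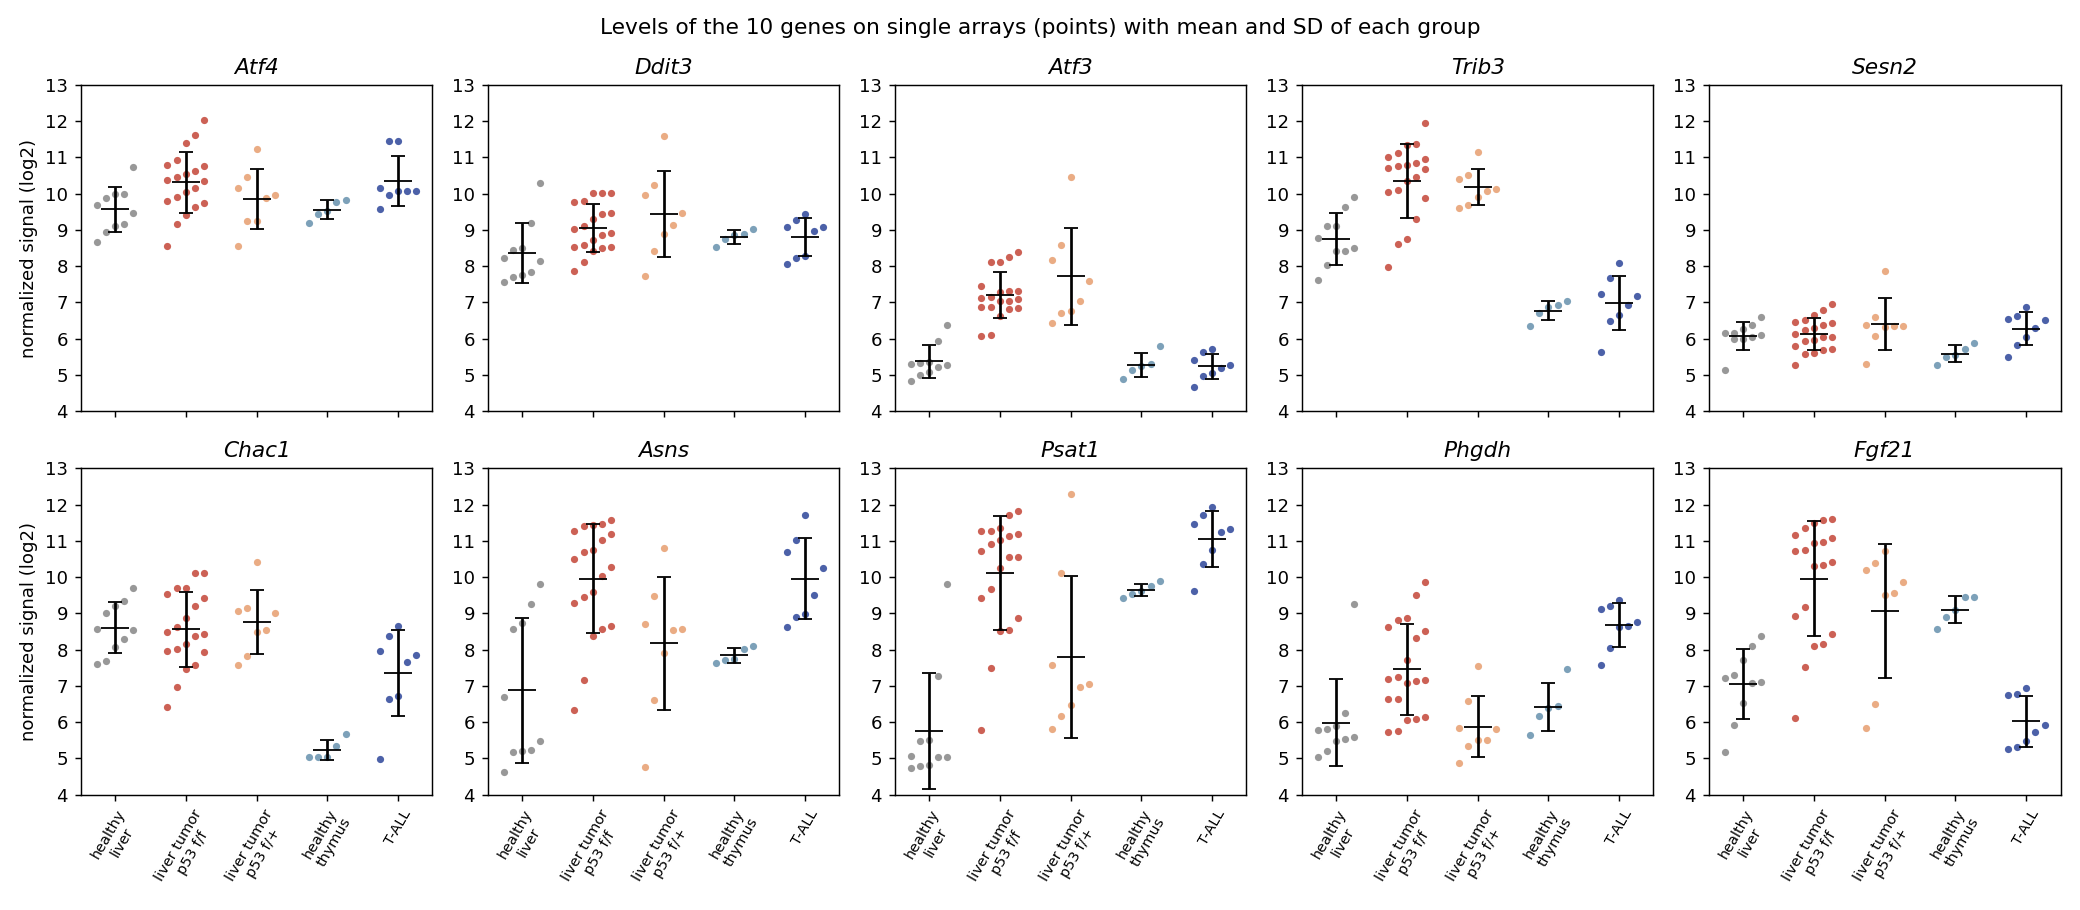
Normalized signal (log2, vertical axis) of the 10 genes on each of the 51 arrays, with the mean and SD of each of the 5 groups as bars. Fgf21 lies above every healthy liver in 22 of 28 liver tumors and below every thymus in all 8 T-ALLs (5.25 to 6.94 against 8.58 to 9.46).

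Atf4 encodes the central transcription factor of the response. Its level ran from 8.56 through a median of 10.37 to 12.03 in the p53 f/f tumors, from 8.55 through 9.93 to 11.22 in the p53 f/+ tumors, and from 8.67 through 9.58 to 10.73 in healthy liver. The groups overlapped, and 7 of 28 tumors exceeded every healthy liver while 2 fell below all of them. The difference was 0.62 ± 0.29 (SE), with a 95% interval of 0.04 to 1.20, and did not pass the test (adjusted p = 0.102). A second Atf4 probe, detected on 49 of 51 arrays, went the other way in liver (-0.18) and correlated with the first by only 0.19 over the liver arrays, so the direction of the Atf4 transcript in liver is not settled by this array. The p53 f/f tumors alone gave 0.74 ± 0.30 (adjusted p = 0.0594).

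Ddit3 encodes Chop, a transcription factor that can promote cell death under lasting stress. It ranged from 7.88 to 10.03 (median 8.97) in p53 f/f tumors, from 7.74 to 11.60 (median 9.30) in p53 f/+ tumors and from 7.56 to 10.30 (median 8.19) in healthy liver. The highest healthy value belonged to healthy liver 1, and only liver tumor 29 exceeded it. Without that liver, 12 of 28 tumors exceeded the rest. The tumors were 0.80 ± 0.30 higher (adjusted p = 0.0408), and 1.02 higher without healthy liver 1 (adjusted p = 0.00487). The call was lost in 13 of 38 fits that each left out 1 array, namely liver tumors 7, 8, 11, 13 and 27 and healthy livers 2, 3, 4, 6, 7, 8, 9 and 10, with adjusted p from 0.0506 to 0.0878 in these. It was also lost in the authors' log2 values (0.48, adjusted p = 0.0706), with no detection filter (adjusted p = 0.0573) and with chip as a random block (adjusted p = 0.0536). The second Ddit3 probe gave 0.92.

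Atf3, a factor induced by many stresses and by immediate early signals, had the largest number of tumors above the healthy range. It was detected on all 28 tumors and on 2 healthy livers. The p53 f/f tumors ran from 6.08 to 8.39 (median 7.11), the p53 f/+ tumors from 6.44 to 10.45 (median 7.33), and the healthy livers from 4.83 to 6.38 (median 5.28). Of the 28 tumors, 26 lay above every healthy liver, and all 28 lay above the 9 livers other than healthy liver 1, as was the case for 0.842% of all genes. The tumors were 1.98 ± 0.30 higher (adjusted p = 5.33e-06), a size that depends on the background level in healthy liver. It was 1.40 with an offset of 50 and 0.47 in the authors' log2 values (adjusted p = 0.00747). The highest value by far was that of liver tumor 29.

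Immediate early genes, the class that includes Atf3 relatives such as Fos and Jun, also differed in liver. Of 10 tested, 6 were higher and 1 was lower, with a median of 1.23, against 14.8% and 14.2% of all genes. Fos was detected on 2 of 10 healthy livers, 14 of 20 p53 f/f tumors and 7 of 8 p53 f/+ tumors. It thus entered the test only through the tumors. Ier3, a survival gene of that class, was 3.23 ± 0.56 higher (adjusted p = 4.55e-05), the growth factor response gene Egr1 1.75 ± 0.36 higher (adjusted p = 0.00033) and the transcription factor gene Klf6 1.70 ± 0.35 higher (adjusted p = 0.000366). Zfp36, which encodes an mRNA decay factor, was lower, with a difference of -0.52 ± 0.17 (adjusted p = 0.0186). The summed signal of the list overlapped between the groups and ran from 12.41 to 14.62 in healthy liver and from 11.56 to 15.26 in tumors. Whether it has a part in the Atf3 difference was not tested.

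Trib3, a pseudokinase induced by Atf4 and Chop that feeds back on both, was detected on all liver arrays. It ran from 7.98 to 11.94 (median 10.69) in p53 f/f tumors, from 9.60 to 11.16 (median 10.10) in p53 f/+ tumors and from 7.61 to 9.92 (median 8.63) in healthy liver. Liver tumor 24 was the lowest tumor, and 20 of 28 tumors exceeded all livers. The difference was 1.55 ± 0.32 (adjusted p = 0.000312), and the other Trib3 probes gave 1.49 and 1.66.

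Sesn2, a leucine-binding regulator of mTORC1, was close to background everywhere. Its mean was 6.13 ± 0.44 (SD, n = 20) in p53 f/f tumors, 6.41 ± 0.71 (n = 8) in p53 f/+ tumors and 6.08 ± 0.38 (n = 10) in healthy liver, and the tumor difference was 0.12 with a 95% interval of -0.26 to 0.51. Its other probes were detected on only 7 and 2 of the 51 arrays.

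Chac1, an enzyme that degrades glutathione and is a usual target of Atf4, was well detected and did not separate the liver groups. It ran from 6.42 to 10.11 (median 8.46) in p53 f/f tumors, from 7.56 to 10.41 (median 8.77) in p53 f/+ tumors and from 7.60 to 9.71 (median 8.55) in healthy liver. Of 28 tumors, 3 lay above and 5 below every liver. The difference was 0.00 ± 0.33, with a 95% interval of -0.67 to 0.68.

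**Figure D2:**
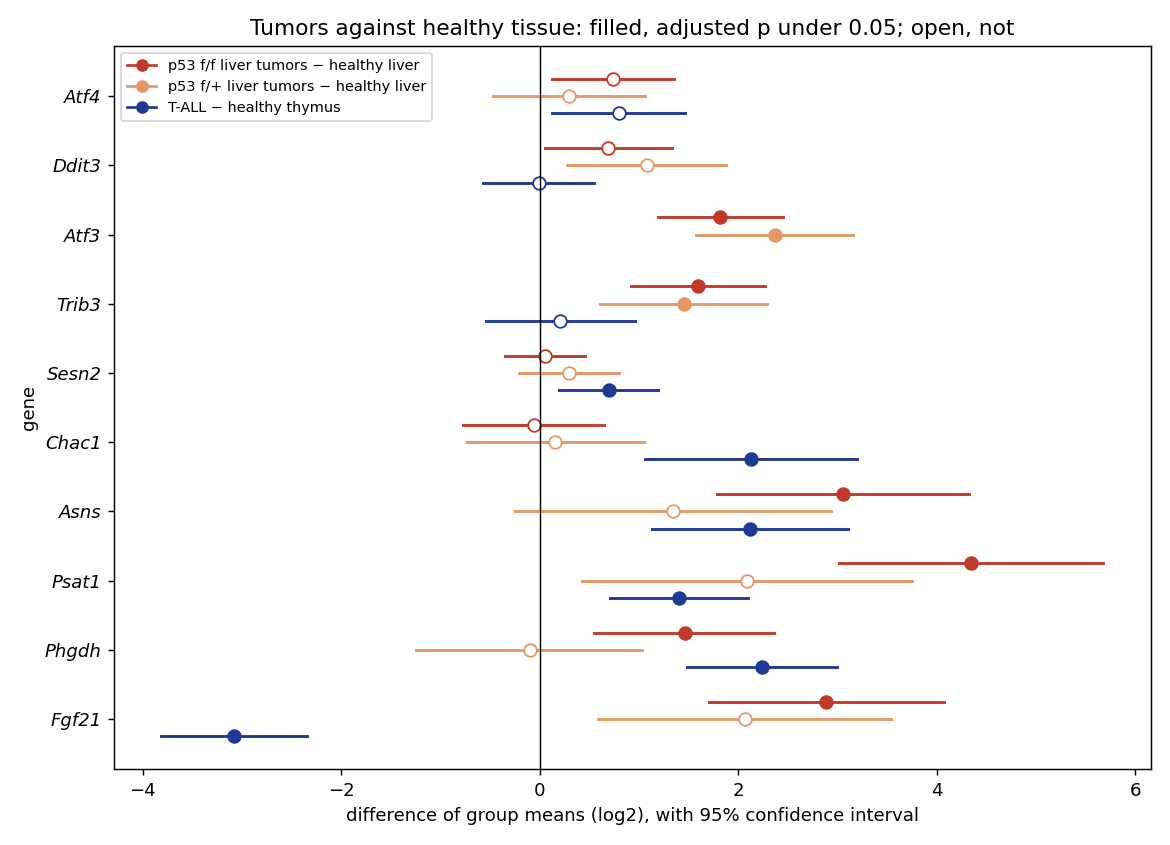
Differences of group means (log2, horizontal axis) with 95% confidence intervals for each gene: p53 f/f tumors and p53 f/+ tumors against healthy liver, and T-ALL against healthy thymus. Filled points passed adjusted p under 0.05. Fgf21 lies right of 0 in liver and left of 0 in T-ALL (-3.08), and Atf3 was not tested in thymus.

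Asns encodes asparagine synthetase, which makes asparagine from aspartate and glutamine. The p53 f/f tumors ran from 6.34 to 11.57 (median 10.39), the p53 f/+ tumors from 4.77 to 10.81 (median 8.54) and the healthy livers from 4.63 to 9.80 (median 6.09). The healthy livers were split: livers 1, 2, 3 and 5 lay between 8.56 and 9.80, liver 8 at 6.70 and the other 5 between 4.63 and 5.49. Thus 13 of 28 tumors exceeded every liver, and the rest lay within the healthy range. The tumors were 2.57 ± 0.60 higher (adjusted p = 0.00136), and the second probe gave 2.20 with a correlation of 0.96 to the first. The difference was 1.19 in the authors' log2 values (adjusted p = 0.00371) and 3.46 with array quality weights.

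The split of Asns among healthy livers was compared with other properties of these samples and followed none of them fully. The 4 livers in which Xist, the X-inactivation transcript, was not detected had a median Asns of 8.65 (5.49 to 9.26), and the 6 with Xist a median of 5.22 (4.63 to 9.80). The labels do not give sex. Liver 1, the highest for Asns, had Xist, and liver 4, at 5.49, did not. With Xist detection as a covariate, in a fit not planned in advance, the tumor difference was 2.16 (adjusted p = 0.00628). Livers 1, 2 and 3, but not liver 5 (9.26), also shared a chip with liver tumors 28 and 29. These 2 tumors are p53 f/+ and came from 1 mouse. On that chip the 2 tumors differed from the 3 livers by -3.35. Among arrays with intensities, that chip is the only one that holds tumors and livers together, so in the fit with chip as a fixed effect the Asns difference had the opposite sign (-3.14, adjusted p = 0.678) and so did those of Psat1 (-0.96) and Phgdh (-0.34), while Atf3 (2.70), Trib3 (2.53), Fgf21 (2.16) and Ddit3 (1.89) kept their sign. None of the 10 genes was called in that fit.

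Psat1 and Phgdh encode enzymes of serine synthesis, Phgdh the first step and Psat1 the next. Psat1 showed the largest difference of the 10 genes. It was detected on all 28 tumors and on healthy livers 1 and 3 only. It ran from 5.78 to 11.82 (median 10.64) in p53 f/f tumors, from 5.81 to 12.28 (median 7.00) in p53 f/+ tumors and from 4.73 to 9.80 (median 5.06) in healthy liver. Liver 1 held the highest healthy value, 9.80, liver 3 was at 7.26, and the other 8 were at or below 5.50. The difference was 3.70 ± 0.62 (adjusted p = 2.89e-05), and 4.15 without healthy liver 1. Since 8 of 10 healthy livers were not above background, its size depends on the background level, and it was 3.01 with an offset of 50 and 1.59 in the authors' log2 values (adjusted p = 0.00129).

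Phgdh ran from 5.72 to 9.85 (median 7.17) in p53 f/f tumors, from 4.87 to 7.55 (median 5.66) in p53 f/+ tumors and from 5.03 to 9.26 (median 5.69) in healthy liver. Healthy liver 1 again held the highest healthy value, and the next liver was at 6.25. The difference over all tumors was 1.01 ± 0.43 and did not pass (adjusted p = 0.0704). Without healthy liver 1 it was 1.37 (adjusted p = 0.00511). The p53 f/f tumors alone were 1.46 ± 0.45 higher (adjusted p = 0.013).

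Fgf21 was detected on all 28 liver tumors and on 9 of 10 livers. It ran from 6.11 to 11.60 (median 10.58) in p53 f/f tumors, from 5.83 to 10.71 (median 9.71) in p53 f/+ tumors and from 5.17 to 8.37 (median 7.16) in healthy liver. Of the 28 tumors, 22 exceeded every liver. The other 6 lay within the healthy range, liver tumor 14 at 5.83, tumor 2 at 6.11, tumor 29 at 6.49, tumor 24 at 7.51, tumor 10 at 8.11 and tumor 27 at 8.14. The tumors were 2.66 ± 0.56 higher (adjusted p = 0.000429), and 1.45 higher in the authors' log2 values (adjusted p = 0.000946). Healthy liver 1 was here the lowest liver, and without it the difference was 2.45 (adjusted p = 0.000831).

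Genes of fasting and of Fgf21 reception were tested beside Fgf21. Of 9 Ppara targets tested, none was higher and 2 were lower, the fatty acid hydroxylase gene Cyp4a14 with a log2 difference of -2.67 ± 0.86 (adjusted p = 0.0182) and Cpt1a, of mitochondrial fatty acid import. The Cpt1a probe was above background on only 7 of 10 livers, 9 of 20 p53 f/f tumors and 4 of 8 p53 f/+ tumors, so no size is given. Among 5 receptor genes, Fgfr1 was 0.59 ± 0.21 higher (adjusted p = 0.0317), though it was above background on only 1 of 10 livers, 9 of 20 p53 f/f tumors and 5 of 8 p53 f/+ tumors, and Fgfr3 differed by -0.96 ± 0.29 (adjusted p = 0.0123). The other 3 were not called.

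The tumor genotypes were compared next. Against healthy liver, 6 of the 10 genes were higher in p53 f/f tumors (Psat1, Asns, Fgf21, Atf3, Trib3 and Phgdh), where 15.1% of all genes were called higher and 14.2% lower. Among arrays with intensities, p53 f/f tumors and healthy livers shared no chip, so chip and group cannot be told apart in this comparison. In p53 f/+ tumors 2 were higher, Atf3 by 2.37 ± 0.39 and Trib3 by 1.45 ± 0.42 (adjusted p = 0.000125 and 0.0171), where 7.67% of all genes were called higher and 5.04% lower. Without healthy liver 1, 4 genes were higher in p53 f/+ tumors, with Psat1 at 2.54 (adjusted p = 0.0144) and Ddit3 at 1.30 (adjusted p = 0.00951) added, and Ddit3 was called in p53 f/f tumors as well (0.91, adjusted p = 0.0163). All 8 p53 f/+ tumors lay above all 10 livers for Atf3, as was the case for 0.425% of all genes. When the genotypes were set against each other directly, none of the 10 genes was called (0.13% of all genes were called higher and 0.33% lower), so the different counts do not show that the genotypes differ. At an unadjusted p under 0.05 the amino acid enzymes Psat1 (2.26, adjusted p = 0.123), Asns (1.72, adjusted p = 0.23) and Phgdh (1.56, adjusted p = 0.119) were higher in p53 f/f tumors. With array quality weights 3 genes were called, Atf4, Psat1 and Phgdh.

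The enzymes had wide spreads within the p53 f/+ group. For Psat1, liver tumors 13 and 14 were at 10.10 and 12.28 and the other 6 between 5.81 and 7.56. Without liver tumor 14 the Psat1 difference between the genotypes was 2.88 (adjusted p = 0.0326). This was the only 1 of 38 fits leaving out 1 array in which Psat1 passed, and adjusted p reached 0.221 in the others. Chips that held both genotypes allowed the comparison within a chip. On 1 of them (2 p53 f/f against 3 p53 f/+ tumors) the differences were -0.93 for Psat1, 0.07 for Asns and 0.11 for Phgdh, and on the other (3 against 3) they were 1.83, 0.61 and 1.61. The sizes thus differed between these chips, and for Psat1 the sign did too.

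**Figure D3:**
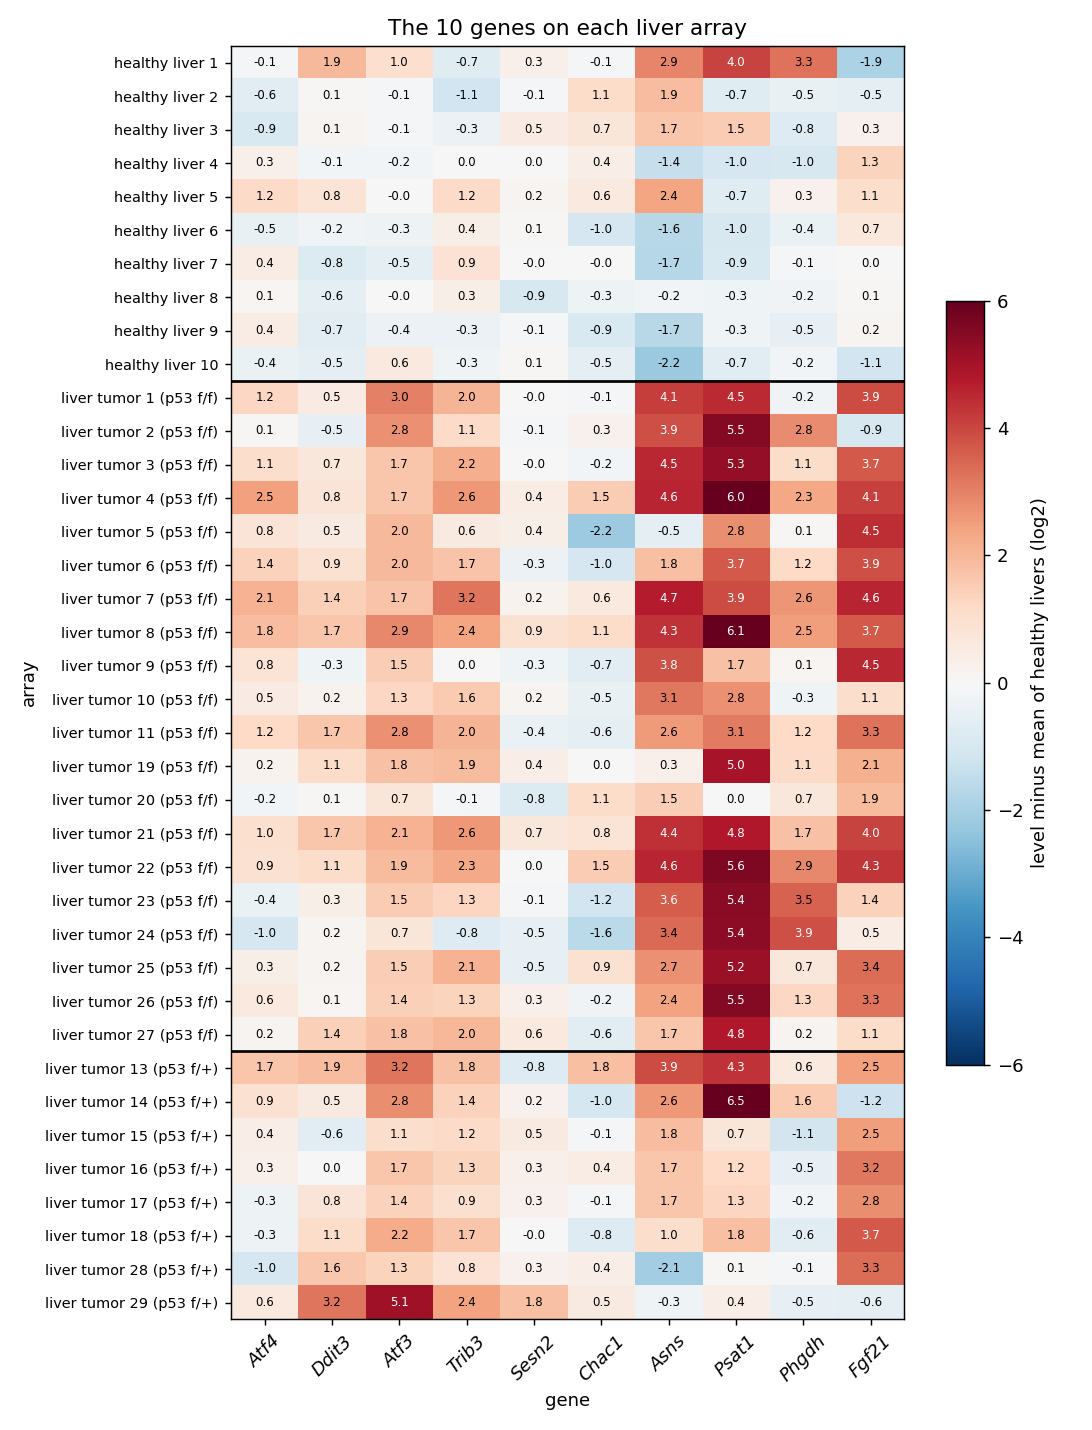
Level of each gene minus the mean of the 10 healthy livers (log2, color and printed number) on each liver array, with healthy livers on top, then p53 f/f tumors and p53 f/+ tumors. Liver tumor 29 is highest for Atf3, Ddit3 and Sesn2 and near the healthy mean for Psat1 and Asns, and liver tumor 20 is near it for Psat1, Trib3 and Atf4.

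Single tumors differed in how many of the 10 genes lay above the range of healthy liver. Counted against all 10 livers, the number per tumor ran from 1 to 7 with a median of 4 in p53 f/f tumors, and from 2 to 7 with a median of 3 in p53 f/+ tumors. Counted against the 9 livers other than healthy liver 1, it ran from 3 to 9 (median 6) and from 2 to 9 (median 3.5). Liver tumor 8 (p53 f/f) and liver tumor 13 (p53 f/+) reached 9 of 10 in this count, each leaving out a single gene, Chac1 and Sesn2. Liver tumor 17 had only Atf3 and Fgf21 above. The share of all genes above these ranges was not counted per tumor, so the counts describe the 10 genes only. Liver tumor 13 was also the dimmest liver array. Of its group it had the lowest hepatocyte marker signal (16.42) and the highest stromal (14.66), macrophage (15.66) and immediate early (15.26) signals.

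Tumors could be high in one branch and low in another. Liver tumor 29 had the highest Atf3 (10.45), Ddit3 (11.60) and Sesn2 (7.86) of all 28 tumors, but Fgf21 at 6.49, Psat1 at 6.17 and Asns at 6.60. Liver tumor 24 had the highest Phgdh (9.85) and a Psat1 of 11.14, with the lowest Trib3 (7.98) and an Atf4 of 8.56. Liver tumor 7 had the highest Trib3 (11.94), Asns (11.57) and Fgf21 (11.60). Liver tumor 20 had the lowest Psat1 (5.78) and Atf3 (6.08) among p53 f/f tumors.

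Of the animals, 8 gave 2 tumors each, 5 of them p53 f/f and 3 p53 f/+. Tumors of 1 mouse were closest for Atf3, with a median difference of 0.35 within the 8 pairs against 0.70 between tumors of different mice of the same genotype. For Psat1 the medians were 0.79 and 1.37, and for Asns 0.86 and 1.44. Of the 10 genes, 4 differed more within pairs than between mice, Fgf21 (2.54 and 1.28), Atf4 (1.14 and 0.84), Trib3 (0.93 and 0.77) and Ddit3 (0.88 and 0.74). In 1 mouse liver tumors 1 and 2 were at 10.96 and 6.11 for Fgf21, and in the mouse with tumors 14 and 15 Psat1 was at 12.28 and 6.47 while Fgf21 was at 5.83 and 9.56. These are descriptions over few pairs.

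**Figure D4:**
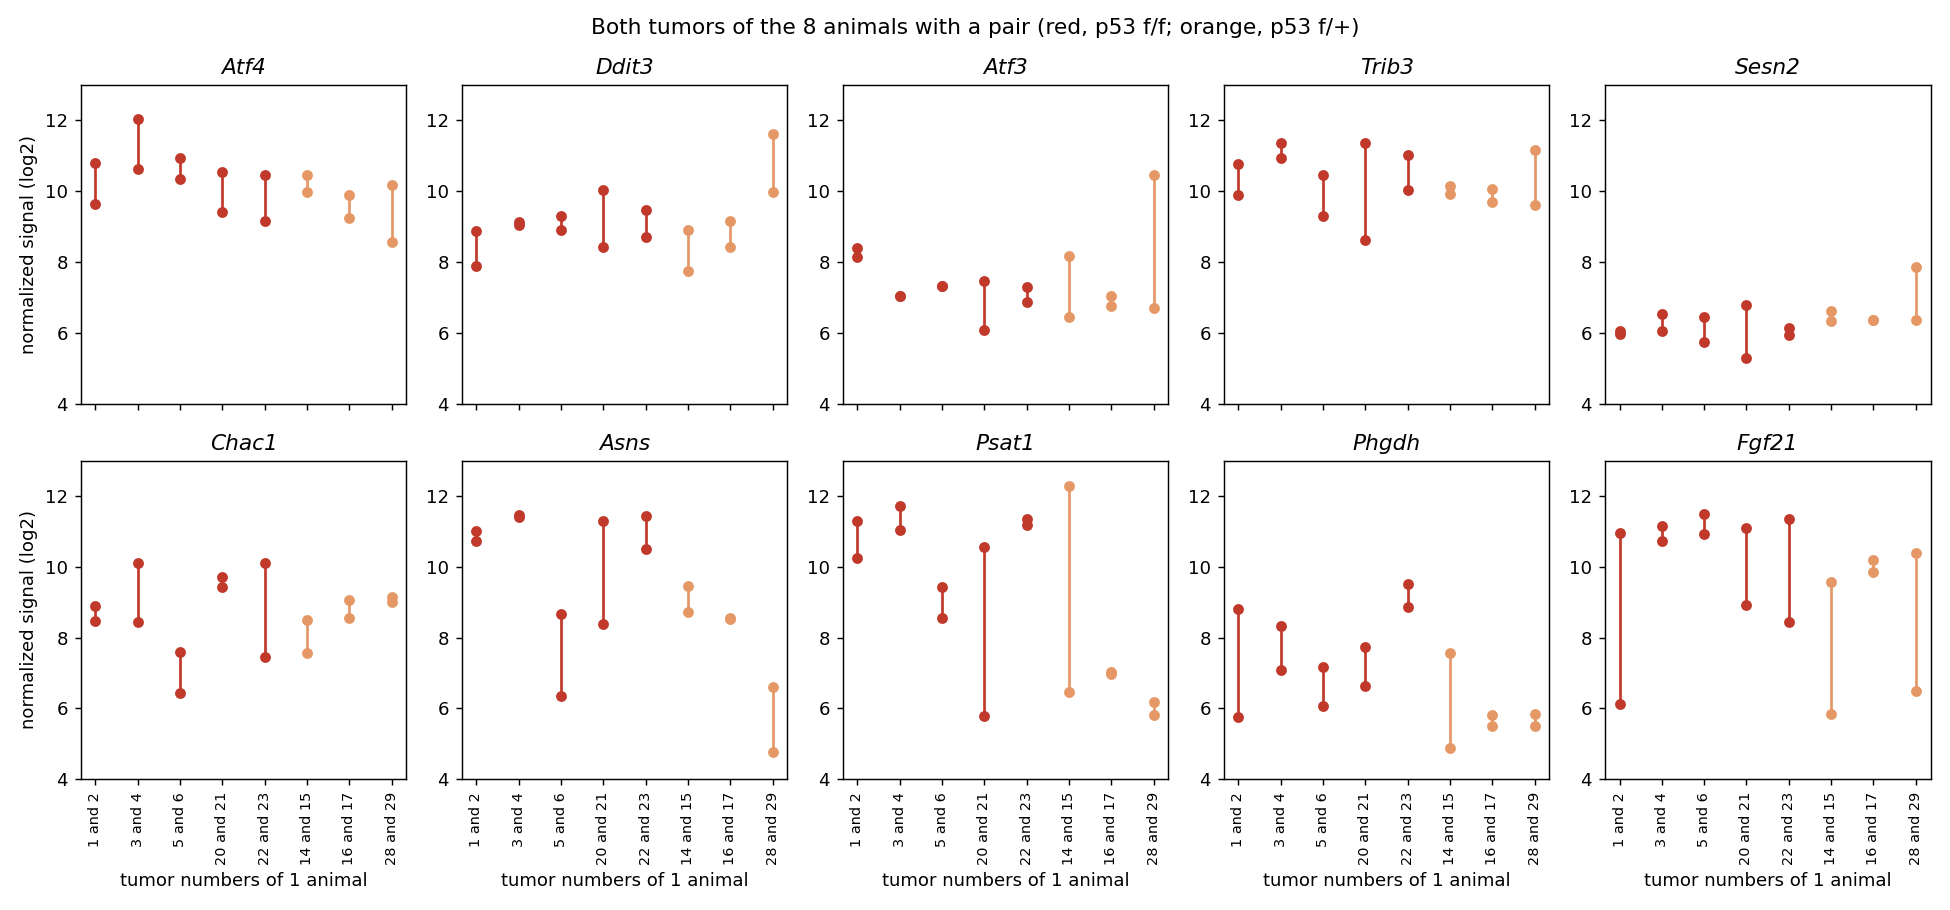
Normalized signal (log2, vertical axis) of both tumors in each of the 8 animals with a pair (horizontal axis, tumor numbers), joined by a line, red for p53 f/f and orange for p53 f/+. Fgf21 differs by up to 4.84 within an animal, while for Atf3 the median difference is 0.35 and tumors 28 and 29 are farthest apart (3.75).

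Over the 28 liver tumors the 10 genes did not vary as one group. Of 45 pairs of genes, 7 had a Pearson correlation over 0.5 and 12 had one below 0, with a median of 0.18. The highest were Psat1 with Phgdh (0.72), Atf4 with Trib3 (0.66), Ddit3 with Atf3 (0.65) and Asns with Psat1 (0.63). The lowest was Atf3 with Fgf21 (-0.27), which had a rank correlation of 0.07. Within the 20 p53 f/f tumors Atf4 with Fgf21 reached 0.73 and Atf4 with Trib3 0.70, while Psat1 with Phgdh was at 0.56, Asns with Phgdh at 0.46, Asns with Psat1 at 0.41 and Ddit3 with Atf3 at 0.39. The points share arrays, chips and in part animals, and chip was not taken into account. Liver tumor 29 sits at the end of several of these relations. The Atf4 values are those of its first probe, with which the second correlated by only 0.19 over the liver arrays.

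**Figure D5:**
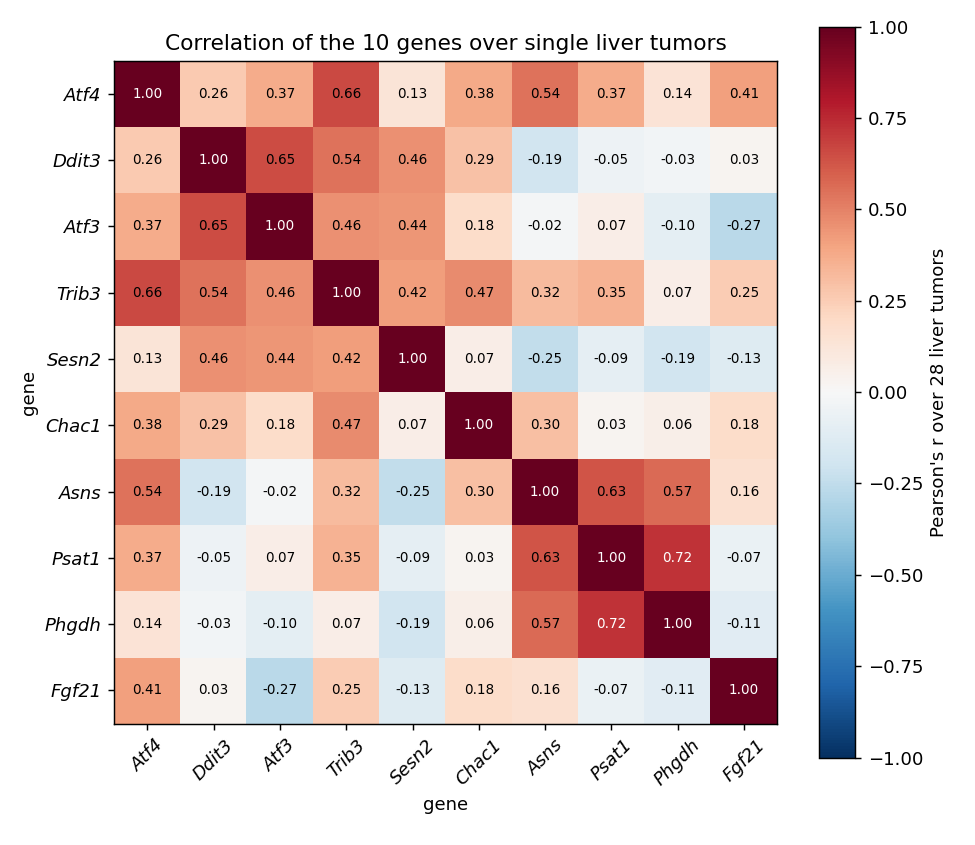
Pearson's r between the 10 genes (both axes) over 28 liver tumors, as color and number. The enzymes Asns, Psat1 and Phgdh form one block (0.57 to 0.72), Ddit3 pairs with Atf3 (0.65) and with Trib3 (0.54), and Fgf21 has no value over 0.5.

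Outside the 10 genes, the transcripts with the most similar pattern over the 28 tumors were picked among 11508 genes. For Psat1 they were Gars (0.87), which encodes glycyl-tRNA synthetase, Mthfd2 (0.86), of mitochondrial folate metabolism, and the replication gene Mcm2 (0.83). For Phgdh they were Mtbp (0.88), Pus7l (0.84) and Psip1 (0.84), and for Asns Bop1 (0.75), Polr2g (0.74) and Usp4 (0.73). For Atf3 they were Klf6 (0.80), the lipid droplet gene Hilpda (0.77) and Rlf (0.76), and for Ddit3 5430416N02Rik (0.77), Snhg12 (0.75) and 2410006H16Rik (0.74). For Fgf21 they were Scube3 (0.80), Scyl3 (0.79) and Wipf3 (0.78), for Atf4 Dazap2 (0.90), Pyroxd1 (0.88) and Kansl2 (0.88), and for Trib3 Fbxw2 (0.73), Rpl24 (0.71) and Maf1 (0.69). For Sesn2 they were Ppara (0.75), Spring1 (0.71) and Rnf207 (0.68), and for Chac1 Akr1b8 (0.73), Vldlr (0.67) and 2510009E07Rik (0.67). These are the top 3 of very many correlations and carry no test, and those of Atf4 rest on its first probe only.

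Other genes of the response in liver were read against the background of 14.8% higher and 14.2% lower. Of 17 further Atf4 and Chop targets tested, 4 were higher and none lower (median 0.48). The stress chromatin gene Nupr1 was 2.55 ± 0.48 higher (adjusted p = 0.000123), Ndrg1 1.82 ± 0.42 (adjusted p = 0.00109) and Cebpg, a C/EBP partner of Atf4, 0.80 ± 0.14 (adjusted p = 5e-05). Of 5 amino acid transporters, 2 were higher. Slc7a11, the cystine-glutamate exchanger, was 4.71 ± 0.73 higher (adjusted p = 9.53e-06). It was detected on 1 of 10 healthy livers and on 25 of 28 tumors, so it entered the test only through the tumors and the size of the difference depends on the background level. The neutral amino acid transporter Slc1a4 was 1.21 ± 0.33 higher (adjusted p = 0.00534).

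Enzymes next to Psat1 and Phgdh were divided. Of 8 serine, proline and one-carbon enzymes tested, 3 were higher and 3 lower. Mthfd2 was 2.35 ± 0.45 higher (adjusted p = 0.000161), the proline synthesis gene Aldh18a1 1.63 ± 0.41 (adjusted p = 0.00262) and the mitochondrial folate gene Aldh1l2 1.57 ± 0.49 (adjusted p = 0.0137). Aldh1l2 was above background on 1 of 10 healthy livers, 16 of 20 p53 f/f tumors and 4 of 8 p53 f/+ tumors, and entered the test only through the tumors. The differences of Cbs, of transsulfuration, and of the serine hydroxymethyltransferases Shmt2 and Shmt1 were -1.16 ± 0.40, -1.09 ± 0.35 and -0.90 ± 0.35 (adjusted p = 0.0269, 0.0176 and 0.0478). Of 16 aminoacyl-tRNA synthetases, 5 were higher and 1 lower: Vars by 1.25 ± 0.21, Gars by 0.82 ± 0.20 and Lars by 0.75 ± 0.14 were the largest increases (adjusted p = 2.23e-05, 0.0022 and 0.000163), and Aars differed by -0.59 ± 0.18 (adjusted p = 0.014).

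The stress sensors and the neighboring chaperone branches were tested next. Over all genes 14.8% were called higher and 14.2% lower. Of 11 genes for eIF2 kinases, phosphatases and eIF2B subunits, 2 were called higher. Eif2ak3 (Perk) differed by 0.60 ± 0.22 and Eif2ak2 (Pkr) by 0.55 ± 0.18 (adjusted p = 0.0401 and 0.0218). Eif2ak3 was detected on only 5 of 10 healthy livers, so its size depends on the background level. Of 14 endoplasmic reticulum chaperone genes 2 were higher, Creld2 by 1.01 ± 0.30 and Pdia3 by 0.59 ± 0.14, and 2 were lower, with differences of -0.57 ± 0.16 for Pdia6 and -0.55 ± 0.15 for Sel1l. Of 7 mitochondrial chaperones and proteases 2 were higher, Lonp1 by 0.77 ± 0.19 and Hspa9 by 0.39 ± 0.13. All 6 of these had adjusted p of 0.0194 or below. Among 10 relatives of the genes, Trib2 was 0.66 ± 0.20 higher (adjusted p = 0.0118) and was detected on 1 of 10 healthy livers. Glul, the glutamine synthetase gene, was called lower, but its probe was above background on only 4 of 10 livers, 3 of 20 p53 f/f tumors and 0 of 8 p53 f/+ tumors, so no size is given.

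Marker signals of other cell types differed between tumors and healthy liver as well. Neutrophil markers were higher for 5 of 7 genes tested (S100a8 by 2.69, S100a9 by 2.54 and Retnlg by 1.89), macrophage markers for 5 of 8 (Gpnmb by 4.00, Cd14 by 3.99 and Lyz2 by 1.56), and stromal and endothelial markers for 6 of 8 (Col1a1 by 2.29, Emcn by 1.98 and Stab1 by 1.12). The macrophage markers not called were Adgre1 (0.60), Csf1r (0.15) and Clec4f (-1.74, adjusted p = 0.12). The stromal ones not called were Col1a2 (0.01) and Col3a1 (0.33), and the neutrophil ones Ngp (0.81) and Csf3r (0.23). Of the called genes named, S100a9 was detected on 1 of 10 healthy livers, Gpnmb on 2, Retnlg on 3 and Col1a1 on 3. They thus entered the test only through the tumors and their sizes depend on the background level. The counts are a description. Bile duct markers were higher for 1 of 3 (Sox9 by 2.56) and Krt8, listed as a thymic epithelial gene, by 1.41. None of 7 hepatocyte, 6 T cell or 2 B cell markers tested was called, but the hepatocyte list includes Alb, and Apoa1 and Ahsg averaged 15.28 and 15.00 in healthy liver, near the highest value of the scale (15.77). Mup3, a hepatocyte gene outside the list chosen after its values were seen and given with no test, averaged 13.97 ± 3.27 in healthy liver, 7.89 ± 2.66 in p53 f/f tumors and 7.62 ± 2.40 in p53 f/+ tumors. Healthy liver 1 was at 4.69 for Mup3 and the other 9 livers lay between 14.30 and 15.44. The summed macrophage signal ran from 11.27 to 14.99 in healthy liver and from 11.98 to 15.66 in tumors, and the neutrophil signal from 8.03 to 10.55 and from 9.09 to 14.30. In bulk tissue, fewer cells of a type and less RNA per cell cannot be told apart, and the part of these cells in the results above was not tested.

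In T-ALL 9 of the 10 genes could be tested against healthy thymus, and 5 were higher and 1 lower. Phgdh, Chac1, Asns, Psat1 and Sesn2 were higher, Fgf21 was lower, and Atf4, Ddit3 and Trib3 were not called. Over all 10247 genes tested in thymus, 10.6% were called higher and 18.8% lower. The median difference of the 9 genes was 0.80, and that of all genes was -0.05. Atf3 was detected on 1 of 8 T-ALL and 1 of 5 thymus arrays and was not tested. Chac1 was detected on 2 of 5 thymi and entered the test only through T-ALL. T-ALLs and thymi lay on different chips, so chip and group cannot be told apart, and with chip as a random block only Phgdh stayed called higher among the 5. The intensities of T-ALL 7 correlated by rank with its own authors' log2 values by 0.786, but by 0.897 with those of T-ALL 9, and its authors' values were closest to the intensities of healthy thymus 4 (0.818). Whether its values carry the right label is not known here. Without T-ALL 7, which is the highest T-ALL for Phgdh and the lowest for Asns and Fgf21, there were again 5 genes higher and 1 lower, with Phgdh at 2.14, Asns at 2.31 and Fgf21 at -2.97.

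Phgdh was at 7.47, 6.40, 6.18, 5.65 and 6.43 in the 5 thymi and ran from 7.56 to 9.37 (median 8.70) in the 8 T-ALLs. The groups did not overlap, as was the case for 5.39% of all genes with T-ALL above thymus. The lowest T-ALL was the dim T-ALL 4, whose intensity before normalization (50.6) lay within the thymus range (38.8 to 262). The difference was 2.24 ± 0.36 (adjusted p = 0.000221), and 0.68 in the authors' log2 values (adjusted p = 0.00798). Psat1 was at 9.88, 9.53, 9.62, 9.43 and 9.75 in thymus and ran from 9.62 to 11.93 (median 11.28) in T-ALL. Only T-ALL 4 lay within the thymus range, and the difference was 1.40 ± 0.33 (adjusted p = 0.00436), and 0.95 in the authors' log2 values.

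Asns was at 8.02, 7.70, 7.63, 8.11 and 7.73 in thymus and ran from 8.62 to 11.70 (median 9.87) in T-ALL, with no overlap. The dim T-ALL 4 was at 10.24, though its intensity before normalization (215.9) lay within the thymus range (213.8 to 388.7). The difference was 2.12 ± 0.46 (adjusted p = 0.00291), the second probe gave 2.02 and the authors' log2 values 1.40. Chac1 was at 5.34, 5.67, 5.04, 5.04 and 5.05 in thymus and ran from 4.99 to 8.66 (median 7.76) in T-ALL. T-ALL 4 was the one T-ALL without detectable Chac1, and the other 7 lay above all thymi. The difference was 2.13 ± 0.50 (adjusted p = 0.00461), and 0.63 in the authors' log2 values (adjusted p = 0.00565). Sesn2 was at 5.73, 5.49, 5.88, 5.28 and 5.54 in thymus and ran from 5.49 to 6.87 (median 6.41) in T-ALL, a difference of 0.70 ± 0.23 (adjusted p = 0.0357) that was lost in 9 of 13 fits that each left out 1 array.

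Of the transcription factors and Trib3, none was called in T-ALL. Atf4 averaged 10.35 ± 0.70 (SD, n = 8) in T-ALL and 9.55 ± 0.26 (n = 5) in thymus, and 7 of 8 T-ALLs lay above every thymus. These include the dim T-ALL 4 at 11.45, whose Atf4 intensity before normalization (464.9) was below every thymus (693.6 to 1110.6). The difference was 0.80 ± 0.31 (SE), with a 95% interval of 0.13 to 1.46, and narrowly missed the threshold (adjusted p = 0.067). Its second probe gave 1.29, the same direction. Ddit3 averaged 8.80 ± 0.53 in T-ALL and 8.81 ± 0.19 in thymus, with an interval of -0.57 to 0.55 for the difference. Trib3 averaged 6.99 ± 0.75 and 6.78 ± 0.26, with an interval of -0.54 to 0.96.

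Fgf21 was the one gene of the 10 that was lower in a tumor group. The 5 thymi were at 9.08, 9.45, 8.90, 8.58 and 9.46, and the 8 T-ALLs ran from 5.25 to 6.94 (median 5.82). It was detected on all thymi and on 4 T-ALLs, and no T-ALL reached the thymus range, which was so for 12.9% of all genes. The difference was -3.08 ± 0.35 (adjusted p = 7.6e-06). Since 4 of 8 T-ALLs were not above background its size depends on the background level, and it was -1.09 in the authors' log2 values (adjusted p = 2.5e-06). The call also stood with chip as a random block (-3.09, adjusted p = 0.000393).

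Markers of several cell types, T cells among them, were also lower in T-ALL. Of 6 thymic epithelial markers 5 could be tested and 4 were lower, among them the keratin genes Krt8 (-5.88 ± 0.41, adjusted p = 4.66e-08) and Krt5 (-4.36 ± 0.35, adjusted p = 1.76e-07) and the tolerance gene Aire (-2.85 ± 0.38, adjusted p = 4.28e-05). Krt5 was detected on 2 of 8 and Aire on 4 of 8 T-ALLs, so the sizes of these differences depend on the background level. The summed signal of this list ran from 12.75 to 12.94 in thymus and from 7.66 to 10.57 in T-ALL. Psmb11, a cortical epithelial proteasome gene, was detected on 5 of 5 thymi and on no T-ALL, and Foxn1 was detected in neither group. Fgfr2, an epithelial receptor for other fibroblast growth factors, was lower as well (-3.76 ± 0.33, adjusted p = 4.47e-07) and was detected on 4 of 8 T-ALLs. Neutrophil markers were lower for 6 of 7 genes, with a summed signal of 11.40 to 12.50 in thymus and 7.78 to 10.34 in T-ALL. Ngp, Camp and Retnlg were detected on 0 of 8 T-ALLs and S100a9 on 1, so they entered the test only through thymus. Of 7 T cell markers 4 were lower, Rag1 (-3.12), Cd8b1 (-1.21), Cd3e (-0.99) and Cd3d (-0.94), with a summed signal of 16.58 to 16.71 in thymus and 14.85 to 16.16 in T-ALL. The B cell marker Cd79b (-3.26, 1 of 2 tested) and the bile duct markers Sox9 (-4.18) and Krt7 (-3.34, both of 2 tested) were lower too. Sox9 was detected on 3 of 8 T-ALLs and entered the test only through thymus, so its size depends on the background level. Over all genes 18.8% were called lower, and the counts of these lists are a description. Stromal and endothelial markers went mostly the other way, with 4 of 7 higher and 1 lower (Col1a1 by 3.59, Stab1 by 2.12 and Pdgfrb by 1.73, and Pecam1 at -1.27) and a summed signal of 11.92 to 12.08 in thymus and 13.57 to 14.74 in T-ALL. Macrophage markers were higher for 2 of 7 (Gpnmb by 3.06 and Lyz2 by 1.17), with 12.08 to 12.55 in thymus and 12.64 to 14.40 in T-ALL. The part of these cells in the Fgf21 difference was not tested.

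Other lists in T-ALL were read against 10.6% higher and 18.8% lower. Of 16 aminoacyl-tRNA synthetases 8 were higher and none lower (median 0.72), with Eprs at 2.09 ± 0.26, Vars at 1.33 ± 0.15 and Cars at 1.31 ± 0.30 (adjusted p = 2.3e-05, 1.03e-05 and 0.00352). Of 5 serine, proline and one-carbon enzymes tested 3 were higher, Shmt2 by 1.59 ± 0.22, Shmt1 by 1.35 ± 0.36 and Aldh18a1 by 1.25 ± 0.22 (adjusted p = 5.57e-05, 0.0102 and 0.00045). Of 6 amino acid transporters 2 were higher, the cationic amino acid carrier Slc7a3 by 2.54 ± 0.64 and the glycine carrier Slc6a9 by 2.09 ± 0.28 (adjusted p = 0.00741 and 4.84e-05).

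Further Atf4 and Chop targets were divided in T-ALL, with 4 of 17 higher and 5 lower. Jdp2 (2.16 ± 0.50), the translation repressor gene Eif4ebp1 (1.36 ± 0.22) and the mTORC1 inhibitor gene Ddit4 (1.35 ± 0.22) were higher. The proapoptotic gene Bbc3 (-1.96 ± 0.29), Dusp16 (-1.62 ± 0.39) and Gadd45a (-1.30 ± 0.34) were lower, and Bbc3 and Gadd45a are targets of p53 too. All 6 had adjusted p of 0.00863 or below. Jdp2 was detected on 1 of 5 thymi and entered the test only through T-ALL, so its size depends on the background level. Of 11 genes of eIF2 control, Eif2b3 was higher (1.10 ± 0.20, adjusted p = 0.000651), and Nck1 (-1.44 ± 0.42, adjusted p = 0.0167) and the eIF2alpha phosphatase gene Ppp1r15a (-0.92 ± 0.23, adjusted p = 0.00717) were lower. Of 13 endoplasmic reticulum chaperone genes 5 were higher and 2 lower, and of 7 mitochondrial chaperones and proteases 3 were higher. Of 10 immediate early genes 1 was higher and 4 were lower.

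The tumor effects of the tissues were then set against each other in one fit of 9494 genes, in which 11% of genes were called higher in the thymic comparison and 17.7% lower. Of 9 genes tested, Chac1 and Fgf21 were called. The Chac1 effect was larger in T-ALL by 2.13 ± 0.62 (adjusted p = 0.00757), and the Fgf21 effect was lower in T-ALL by a difference of -5.73 ± 0.91 (adjusted p = 3.42e-06). The authors' log2 values gave 0.55 for Chac1 (adjusted p = 0.21) and -2.54 for Fgf21 (adjusted p = 0.000258). Asns (-0.45, interval -2.45 to 1.55), Psat1 (-2.30, interval -4.34 to -0.26, adjusted p = 0.0813, and -2.75 with adjusted p = 0.0209 without healthy liver 1), Phgdh (1.23, interval -0.20 to 2.66) and Trib3 (-1.34, interval -2.44 to -0.25, adjusted p = 0.0567) were not called. Among the neighboring genes, Slc7a11 (-6.31), Mthfd2 (-2.08), Shmt2 (2.68) and Shmt1 (2.25) had different effects in the tissues, with adjusted p of 0.0307 or below. The chips of the tissues were separate, so tissue and chip cannot be told apart here.

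The order of levels over the 5 groups differed from gene to gene. A gap between neighbors in that order was larger than the larger SD of both groups in few places. For Atf3 the tumor genotypes stood above healthy liver (gap of 1.83 from p53 f/f tumors at 7.20 ± 0.63 to healthy liver at 5.37 ± 0.46), and healthy liver, thymus and T-ALL were alike within their spread. For Trib3 the gaps lay between p53 f/+ tumors (10.19) and healthy liver (8.75) and between healthy liver and T-ALL (6.99). For Chac1 all 3 liver groups (8.55 to 8.75) stood above T-ALL (7.36), and T-ALL stood above thymus (5.23). For Fgf21 the order was p53 f/f tumors (9.96), thymus (9.09) and p53 f/+ tumors (9.07), then healthy liver (7.05) and T-ALL (6.02). For Sesn2 only thymus (5.59) stood below its neighbor. For Atf4, Ddit3, Asns, Psat1 and Phgdh no neighbors in the order differed beyond that spread.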

How the data were processed

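RNA of 53 samples was hybridised to Illumina mouse bead arrays. The deposited probe table holds background-subtracted probe intensity and, per the file headers, a detection score, which is a fraction equal to 1 minus the detection p. The authors' series table holds log2 values of the same arrays, whose normalization is not given in the sources used here; it is also the only source for liver tumor 12. The submitters' processing notes name limma. Values of 1 array that matches no sample label (2 columns) were not used.

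Intensities of 51 arrays of both tissues were background-corrected and quantile-normalized together with neqc (limma 3.58.1, R 4.3.3, statmod 1.5.0, offset 16) and are on the log2 scale. T-ALL 5, with under 10% of probes detected, was left out. Of 45281 probes 34885 had 1 gene symbol, 18 several and 10378 none, and 99.78% of symbols matched GRCm38.p6. Each gene was read on its brightest probe. Genes with a detection p under 0.05 on 5 or more arrays of a tissue were tested there with lmFit and eBayes (trend, robust), two-sided, at a Benjamini-Hochberg adjusted p under 0.05. The animal was a random block in liver (correlation 0.184) and in the fit over both tissues (0.198). The fits were tested on simulated data without chip effects, background floor or outlying arrays, so that test does not cover these features. The number of arrays and their signal limit the precision.

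The 10 genes and all lists were chosen with earlier results of these data known. Other genes named are, per list and tissue comparison, up to 3 called each way by size, and the 3 most correlated genes of each member. Alternatives covered normalization, scaling, offset, filter, probe, weights, blocks, chips and leaving out arrays; the rank correlation of intensity with the authors' log2 value was over 0.999 on 51 of 52 arrays and 0.786 on T-ALL 7.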

Additional observations from a re-analysis of the deposited data

Results flagged for a closer look

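In 3 of the 40 gene and group combinations of 4 to 10 samples, 1 healthy liver lay far from the other 9, where chance flags about 1 in 20. Psat1 in healthy liver 1 was at 9.80, and the nearest liver was at 7.26. Phgdh in the same liver was at 9.26, and the nearest was at 6.25. Sesn2 in healthy liver 8 was at 5.14, and the nearest was at 5.98.

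The tumor effect differed between the tissues for Chac1, by 2.13, and for Fgf21, by -5.73, in the test of the difference itself.

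Liver tumor 12 (p53 f/f) entered no comparison on intensities. In the authors' log2 values it lay above all 10 healthy livers for 7 of the 10 genes, a count that was not made over all genes. Its values were 10.62 for Atf4 (highest liver 10.45), 10.15 for Ddit3 (10.08), 9.00 for Atf3 (8.17), 10.34 for Trib3 (9.78), 10.08 for Asns (9.68), 10.17 for Chac1 (9.62) and 9.42 for Fgf21 (8.81).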

How the results depend on the processing

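Psat1, Fgf21, Asns, Atf3 and Trib3 in liver tumors were called in every fit that left out 1 array. With chip as a fixed effect, a fit that rests on 1 chip for tumors against liver, the count of the 10 genes called higher was 0 for all tumors, 0 for p53 f/f and 0 for p53 f/+ tumors. Asns was then at -3.14 (p53 f/f -3.06, p53 f/+ -3.35), Psat1 at -0.96 (-0.79 and -1.38), Phgdh at -0.34 (p53 f/f -0.07) and Chac1 at -0.11 (p53 f/+ -0.14). Between the genotypes Ddit3 was at 0.27 and Chac1 at 0.04. Median scaling moved the median of all genes to 0.23 in liver tumors, 0.31 in p53 f/f tumors, 0.30 between the genotypes, -0.26 in T-ALL and -0.55 in the difference between the tissues. The T-ALL calls over all genes then went from 1091 higher and 1930 lower to 381 and 1690, those of p53 f/f tumors from 1734 and 1633 to 3536 and 404, those of p53 f/+ tumors from 884 and 580 to 543 and 163, those between the genotypes from 15 and 38 to 61 and 5, and those of the difference between the tissues from 1043 and 1684 to 265 and 2513. The 10 genes had 3 higher in T-ALL and 3 lower in the difference, and the values of opposite sign were Chac1 in p53 f/f tumors (0.45), Ddit3 (0.06) and Chac1 (0.22) between the genotypes and Atf4 in the difference (-0.48). The authors' log2 values gave 473 higher and 557 lower in p53 f/+ tumors and 0 and 1 between the genotypes, 0 of the 10 genes higher in the difference, and turned Chac1 in p53 f/f tumors (0.07), Ddit3 in T-ALL (0.04) and Asns in the difference (0.21). The same values without T-ALL 7, chosen after seeing the data, gave 0 genes higher and 2 lower in the difference (Trib3 at -1.02, adjusted p = 0.0482), with Ddit3 in T-ALL at 0.05 and Asns in the difference at 0.16. The second probe turned Atf4 in liver tumors (-0.20), in p53 f/f tumors (-0.36) and between the genotypes (-0.54). Array quality weights gave 6 genes higher in p53 f/+ tumors, 3 higher between the genotypes, and 2 higher and 4 lower in the difference, and turned Chac1 in p53 f/f tumors (0.22), Ddit3 (0.15), Atf3 (0.10) and Chac1 (0.07) between the genotypes and Atf4 in the difference (-0.08). In T-ALL, chip as a random block left 1 gene higher and all 9 T-ALL arrays left 2, with Ddit3 at 0.13 and Trib3 at -0.02. The difference had 2 genes lower with an offset of 50, with no detection filter, with the second probe and with all 9 T-ALL arrays. Without healthy liver 1, liver tumor 13 and T-ALL 4, chosen after seeing the data, 4 genes were higher in p53 f/+ tumors and 2 lower in the difference. Chac1 was then at -0.07 in liver tumors, -0.10 in p53 f/+ tumors and 0.04 between the genotypes, and Phgdh at 0.15 in p53 f/+ tumors. With tumors of 1 animal averaged, Chac1 in liver tumors was at -0.01. Leaving out 1 array at a time gave 2 to 4 genes higher in p53 f/+ tumors, 0 to 1 between the genotypes and 1 to 2 lower in the difference. Over these fits Chac1 ran from -0.11 to 0.13 in liver tumors, -0.17 to 0.06 in p53 f/f tumors, -0.11 to 0.32 in p53 f/+ tumors and -0.38 to 0.05 between the genotypes, Sesn2 from -0.05 to 0.11 in p53 f/f tumors, Phgdh from -0.35 to 0.26 in p53 f/+ tumors and Ddit3 from -0.10 to 0.10 in T-ALL. Replicate numbers did not pair the samples: their deviations correlated by -0.04 to 0.19 in p53 f/f tumors and liver (1 of 10 pairs over 0.1, 3 best with their own number) and by -0.10 to 0.20 in T-ALL and thymus (2 of 4 pairs, 1 best). With the replicate block 2 of the 10 genes were higher in T-ALL, with Ddit3 at 0.05 and Trib3 at -0.03, and Phgdh in p53 f/f tumors was at 1.23 (adjusted p = 0.137). Except where stated above, the cause was not tested. Dim signals limit Sesn2 everywhere and Atf3 outside the liver tumors.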
